A study of Culex quinquefasciatus with 12 samples.

Results

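The genes described here are 5 signalling genes of the southern house mosquito Culex quinquefasciatus that carry Toll and NF-kappa-B names: the receptor Toll9 (CPIJ006515), a pair of adaptor genes both named myd88 (CPIJ008547 and CPIJ018307), the NF-kappa-B essential modulator (CPIJ006917) and the NF-kappa-B p105 subunit (CPIJ012236). They were taken by identifier, as every spot whose probe name holds one of the 5 identifiers. They are 5 of the 19751 genes on the array, with 10 of its 43803 gene spots, 2 probes for each gene. The array files give no gene descriptions, so the names are those that the study's tables pair with the identifiers, and no sequence of the genes or probes was used here.

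Third-instar larvae were starved for 3 h and fed the BinA and BinB proteins of Lysinibacillus sphaericus in equal molar amounts, at 80 ng/ml, the dose that the labels call LC90. Midguts of treated larvae were collected after 6, 12 or 18 h and compared with midguts of untreated larvae of the same time on 2-colour arrays, with untreated RNA in Cy3 (green) and toxin-treated RNA in Cy5 (red) on all 12 arrays. Each time point had 4 arrays, which the labels describe as biological replicates of 20 larvae, and the RNA of an array came from a pool of midguts of the JHB strain. Only larvae still alive at collection were used. The measured quantity is the log2 ratio of toxin over control on each array, where 0 is no difference and 1 is a doubling.

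In insects, Toll receptors sit in the cell membrane and carry an intracellular domain shared with some mammalian interleukin receptors. In Drosophila, a receptor that has bound its ligand recruits the adaptor MyD88, and the signal releases the NF-kappa-B factors Dorsal and Dif from their inhibitor Cactus so that they enter the nucleus. A parallel route, the Imd pathway, runs from the receptor PGRP-LC through a kinase complex, of which the essential modulator is the regulatory subunit, to Relish, an NF-kappa-B protein of the p105 type that is cut before it acts. Both routes are known for switching on antimicrobial peptides, in the fat body and, mostly by Imd, in the gut.

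All 24 readings of every gene, 2 probes on 12 arrays, were well above background in both channels, and 0 were saturated, outlying or in an uneven local background. The 2 probes of a gene differed by a median of 0.04 (Toll9) to 0.10 (myd88 CPIJ008547) on the log2 scale, and by at most 0.27. Over the whole array, 72.8% to 88.5% of the gene spots were well above background in the control channel and 75.4% to 85.1% in the toxin channel. The log ratios of arrays of a time point correlated with r of 0.60 to 0.88. The control channels of the 4 arrays of a time point were nearly identical, with r between 0.992 and 0.997 over 28378 spots, against 0.964 to 0.985 in the toxin channels. After the arrays were brought to a common scale (Aquantile), the median spread of a gene over the 4 control channels was 0.07, 0.05 and 0.05 (SD, log2) at 6, 12 and 18 h, and 0.17, 0.14 and 0.14 over the toxin channels. Without that step it was 0.13, 0.14 and 0.05 over the control channels. On the common scale, duplicate spots of 1 probe within an array spread by 0.06 to 0.09, 0.08 to 0.11 and 0.08 to 0.09 in the control channel. The scaled control channels of different arrays lay within or below these ranges at each time. The unscaled ones exceeded them at 6 and 12 h, but hold differences between whole arrays that duplicates within an array cannot show. The array spreads are of gene means and the duplicate spreads of single spots. The labels call the control samples replicates too. Whether they were 1 RNA was not tested, and if they were, the p-values below leave out the spread between untreated samples. With no dye swap, a dye bias of a probe cannot be told apart from its response to toxin, while it cancels between time points if it is constant.

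Each of the 6 midgut markers (maltase, amylases, chymotrypsin, aminopeptidase N and peritrophin) was well above background in every control sample, and so were the markers of fat body (3), muscle (3) and hemocytes (2). The summed level of the midgut markers was 18.04 to 18.37 in the control and 17.46 to 17.91 in the toxin channels (log2). The fat body markers summed to 12.85 to 14.47 in control and 10.75 to 14.18 in toxin, the muscle markers to 13.06 to 13.33 and 12.98 to 13.95, and the hemocyte markers to 8.93 to 10.13 and 8.57 to 10.26. None of the muscle or hemocyte markers passed the threshold at any time, while 1, 1 and 2 fat body markers and 1, 2 and 1 midgut markers were lower with toxin at 6, 12 and 18 h. The maltase and both amylases were saturated in the toxin channel on every array and on all or most control readings at 12 and 18 h, so the midgut sum rests largely on saturated spots. What part other cells have in the values of the 5 genes was not tested. In a pooled tissue, a change in the number of cells of a type and a change of RNA per cell cannot be told apart.

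The ratios of the 5 genes were above 0 on nearly every array: 59 of 60 values, the exception being Toll9 on 18 h replicate 2. Of all genes, 49.0% to 52.6% had a ratio above 0 on an array. A gene was called at a Benjamini-Hochberg adjusted p under 0.05 from limma, over all 19751 genes, and a log2 ratio of at least 0.75 either way, which is 1.68-fold. By this rule 4 of the 5 genes were up-regulated at 6 h, where 2.24% of all genes on the array were up-regulated. At 12 h it was 2 of 5, against 3.88% of all genes, and at 18 h 1 of 5, against 2.42%. The median log2 ratio of the 5 genes was 0.90, 0.65 and 0.51 at 6, 12 and 18 h, and that of all genes was 0.01, 0.00 and 0.01. The study named these genes for their change on the same arrays, so the counts are not independent evidence of a direction. Of the 5 genes, only myd88 CPIJ018307 was called at all 3 time points, as were 159 genes of the array.

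**Figure D1:**
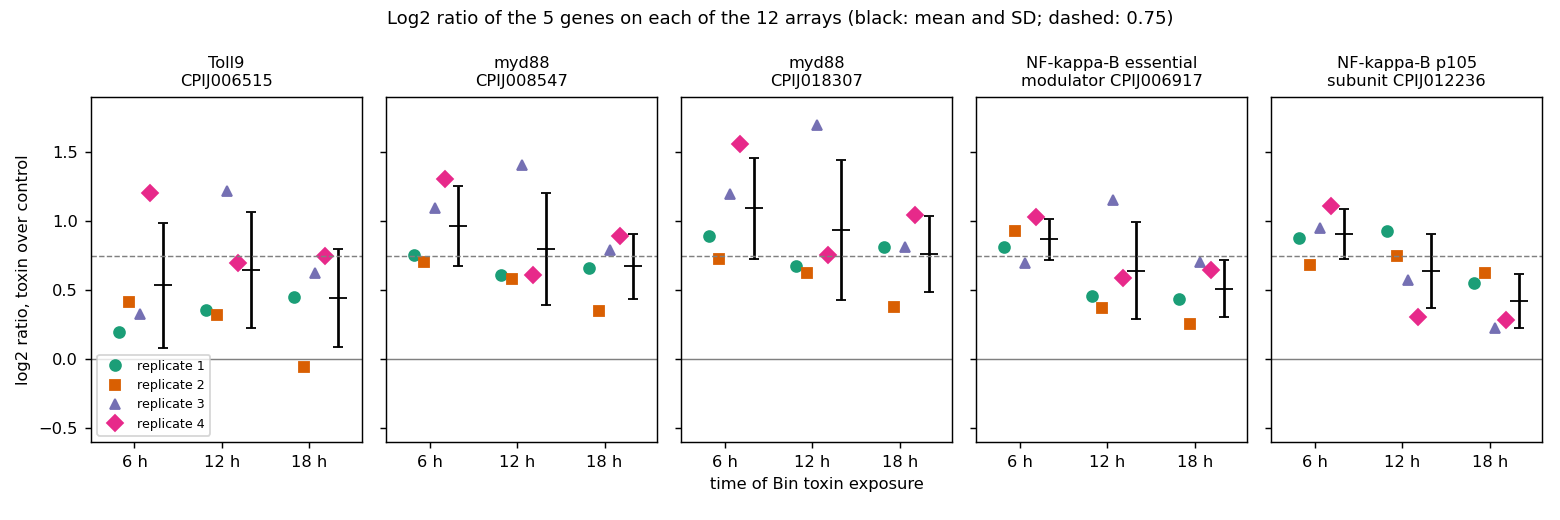
Log2 ratio of toxin over control (vertical axis) of each gene on each of the 12 arrays, by time of exposure; symbols mark replicates, black bars the mean and SD of 4 arrays, and the dashed line the threshold of 0.75. Replicate 4 at 6 h is the highest array for all 5 genes and replicate 3 at 12 h for 4 of them, and the p105 subunit alone is highest on replicate 1 at 12 h.

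Toll9 had the smallest mean ratio of the 5 genes at 6 h and was not called at any time. Its log2 ratios in replicates 1 to 4 were 0.20, 0.41, 0.33 and 1.20 at 6 h. Replicate 4 lay far above the other arrays there. At 12 h they were 0.35, 0.32, 1.22 and 0.70, and at 18 h 0.45, -0.05, 0.62 and 0.75. The means were 0.53 ± 0.45 at 6 h, 0.65 ± 0.42 at 12 h and 0.44 ± 0.35 at 18 h (SD, n = 4). The adjusted p was 0.0446, 0.0149 and 0.102, so the ratios at 6 and 12 h passed the p threshold and stayed under the fold threshold. Without 6 h replicate 4 the mean at 6 h was 0.31 (adjusted p = 0.204), and without 12 h replicate 3 the mean at 12 h was 0.46 (adjusted p = 0.0816). The control signal of Toll9 lay between 10.14 and 10.22 at 6 h, and the toxin signal between 10.34 and 11.42 (normalized log2 intensity). At 18 h the channels overlapped, with 10.62 to 10.69 in control and 10.61 to 11.39 in toxin.

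Both myd88 genes rose, and they moved together. MyD88 is the adaptor between a Toll receptor and the kinases below it. CPIJ018307 had log2 ratios of 0.89, 0.73, 1.19 and 1.56 in replicates 1 to 4 at 6 h. At 12 h they were 0.67, 0.62, 1.69 and 0.76, and at 18 h 0.81, 0.38, 0.81 and 1.04. All 12 values were above 0, and the 3 time points overlapped. Its means were 1.09 ± 0.37, 0.94 ± 0.51 and 0.76 ± 0.28 (SD, n = 4), with adjusted p of 0.00072, 0.0014 and 0.00832, and at each time the gene passed both thresholds. The mean at 18 h lay just above 0.75 and the call was lost without replicate 1, 3 or 4 (0.74, 0.74 and 0.67).

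The other myd88 gene, CPIJ008547, had log2 ratios of 0.75, 0.70, 1.09 and 1.31 at 6 h. At 12 h they were 0.61, 0.58, 1.41 and 0.61, and at 18 h 0.66, 0.35, 0.79 and 0.89. One array, replicate 3, stood above the other 3 at 12 h for both myd88 genes. The means of CPIJ008547 were 0.96 ± 0.29, 0.80 ± 0.41 and 0.67 ± 0.23 (SD, n = 4). The adjusted p was 0.000388, 0.000943 and 0.00491, and the gene was called at 6 and 12 h. Without 12 h replicate 3 the mean at 12 h was 0.60 for CPIJ008547 and 0.68 for CPIJ018307, and neither was called. The ratio of CPIJ008547 was lower than that of CPIJ018307 on all 12 arrays, by 0.02 to 0.29. Whether the probes of one gene also bind the RNA of the other could not be examined without sequences, so the pair may not be 2 separate measurements.

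The NF-kappa-B essential modulator, in mammals the regulatory subunit of the kinase complex that acts on the NF-kappa-B inhibitors, rose most evenly at 6 h. Its log2 ratios were 0.81, 0.93, 0.69 and 1.03 in replicates 1 to 4 at 6 h. At 12 h they were 0.46, 0.37, 1.15 and 0.59, and at 18 h 0.43, 0.26, 0.70 and 0.65. The 6 h arrays all lay above 0.6, while at 12 h only replicate 3 did. The means were 0.87 ± 0.15, 0.64 ± 0.35 and 0.51 ± 0.21 (SD, n = 4), with adjusted p of 0.000159, 0.00089 and 0.00643. The gene was called at 6 h, and at 12 and 18 h it passed the p threshold and not the fold threshold.

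The NF-kappa-B p105 subunit had the smallest adjusted p of the 5 genes at 6 h. Its log2 ratios were 0.87, 0.68, 0.95 and 1.11 in replicates 1 to 4 at 6 h. At 12 h they were 0.93, 0.75, 0.57 and 0.31, and at 18 h 0.55, 0.63, 0.23 and 0.28. The 18 h values all lay below the 6 h values, and this gene is the only one of the 5 with a pair of time points that did not overlap. The share of all genes with such a pair was not computed, so the lack of overlap does not set p105 apart from the array. The means were 0.90 ± 0.18, 0.64 ± 0.27 and 0.42 ± 0.20 (SD, n = 4), with adjusted p of 4.16e-05, 0.000353 and 0.00866. It was called at 6 h and stayed under the fold threshold at 12 and 18 h. Replicate 3 at 12 h, the highest array of the other 4 genes, gave p105 one of its lower values.

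In the separate channels, the toxin signal lay above the control signal with no overlap of the arrays in 14 of the 15 combinations of gene and time, all but Toll9 at 18 h. The share of all genes without overlap was not computed, so this count does not set the 5 genes apart from the array. The control signals of the 5 genes had an SD of 0.02 to 0.14 between arrays of a time point and the toxin signals one of 0.07 to 0.48, the toxin SD being the larger except for the essential modulator at 6 h (0.08 in control and 0.07 with toxin). Without the scaling between arrays, the ranges were 0.03 to 0.21 and 0.23 to 0.59. Between time points the control level of every gene was highest at 18 h. That of myd88 CPIJ008547 was 9.84 ± 0.09, 10.17 ± 0.03 and 10.57 ± 0.02 at 6, 12 and 18 h (SD, n = 4), and its toxin level was 10.80 ± 0.37, 10.97 ± 0.40 and 11.24 ± 0.26. The level of the essential modulator was 10.16 ± 0.08 at 6 h and 11.07 ± 0.07 at 18 h in control, and 11.03 ± 0.07 and 11.58 ± 0.24 with toxin. For both genes the smaller ratio at 18 h went with a higher level in both channels than at 6 h. The p105 subunit differed, with 10.29 ± 0.02 and 10.55 ± 0.03 in control and 11.20 ± 0.19 and 10.97 ± 0.23 with toxin. Each time point lies on 1 slide, so time and slide cannot be told apart in these levels, and they were not tested.

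**Figure D2:**
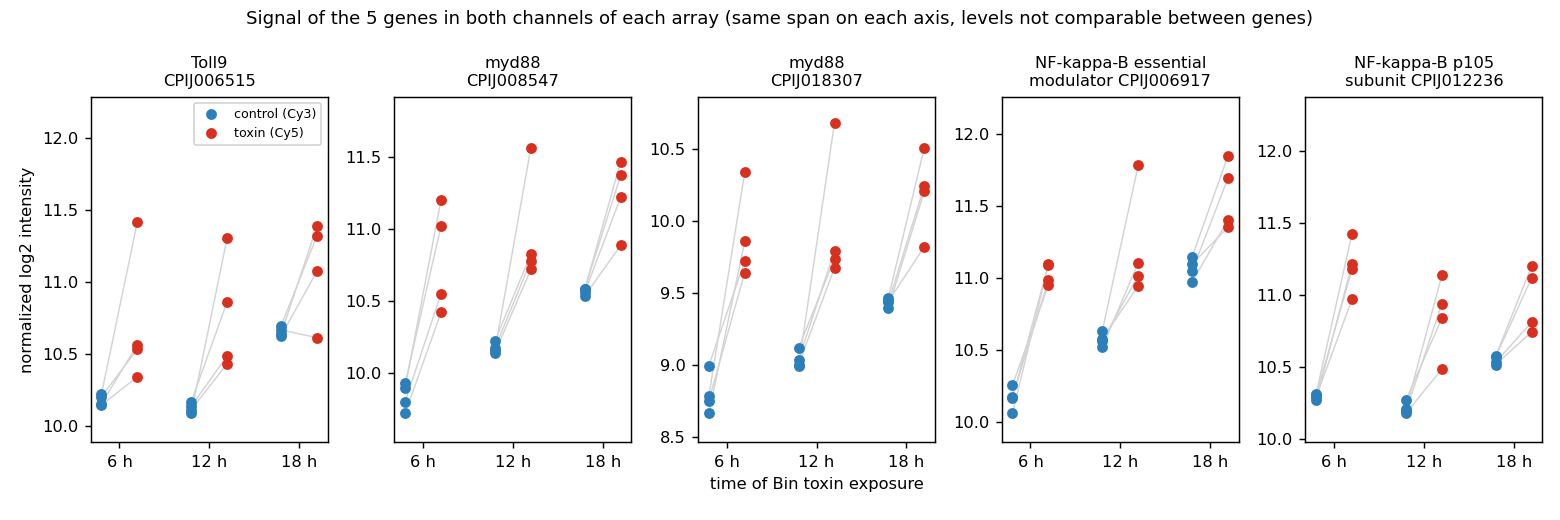
Normalized log2 intensity (vertical axis) of each gene in the control (blue) and toxin (red) channel of each array, lines joining the channels of an array, by time of exposure; each panel spans the same range on its own scale. Control points of a time cluster within 0.4 units, toxin points lie above them except for 1 array of Toll9 at 18 h, and for myd88 and the essential modulator both channels are higher at 18 h than at 6 h.

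The change of the ratio between time points was tested in the same limma fit. Each time point lies on 1 slide, so a change with time and a difference between slides cannot be told apart in these tests. The same thresholds on p and on the size of the change were passed by 0 of the 5 genes for 12 against 6 h, where 1.9% of all genes passed them, by 0 for 18 against 12 h (3.71%) and by 0 for 18 against 6 h (4.46%). At an adjusted p under 0.05 without the fold threshold, 2514, 3803 and 3876 genes of the array passed. The share of all genes at an unadjusted p under 0.05 was not computed. At that threshold the counts were 0, 0 and 1 of 5, which do not set the 5 genes apart from the array. The 1 gene was p105, whose ratio at 18 h was 0.48 lower than at 6 h (difference -0.48, 95% interval -0.79 to -0.17, adjusted p = 0.0355), lower in every pair of arrays but under the fold threshold. For the essential modulator the difference was -0.36 (-0.71 to 0.00, adjusted p = 0.158), and for myd88 CPIJ018307 and CPIJ008547 it was -0.33 (-0.89 to 0.23, adjusted p = 0.41) and -0.29 (-0.74 to 0.16, adjusted p = 0.367). For Toll9 it was -0.09 (-0.67 to 0.49, adjusted p = 0.846). Apart from that of p105, these intervals hold no change. Those of the myd88 pair and the essential modulator also hold a loss of more than 0.7. For the genes other than p105, these 4 arrays per time thus do not show whether the ratio fell. The adjusted p of the p105 difference was 0.0677, 0.0832 and 0.0782 without 6 h replicate 1, 3 or 4, and 0.05, 0.09 and 0.085 without 18 h replicate 1, 3 or 4. Over 17 alternatives of the processing, the p105 difference ranged from -0.78 to -0.25, with a limma adjusted p from 0.0152 to 0.337. The p105 result thus depends on single arrays and on the processing.

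Over the 12 arrays, both myd88 genes and the essential modulator varied together. For Toll9 the relation was weaker by rank and without the 2 farthest arrays, and no weaker within time points. The log2 ratios of both myd88 genes had a Pearson's r of 0.99 and a Spearman's rho of 0.96, with permutation p of 1e-05, the smallest that 100000 permutations can give, and 2e-05 (adjusted over 10 gene pairs 0.0001 and 0.0002). Pearson's r was 0.97 without the 2 arrays farthest from the median of CPIJ008547, and 0.99 for the deviations from the mean of each time point. In every pair the 2 farthest arrays were chosen by the gene with the lower identifier, so they can differ between pairs. The essential modulator and myd88 CPIJ008547 had an r of 0.84 (permutation p = 0.0004, adjusted 0.002) and a rho of 0.84 (p = 0.00104, adjusted 0.0052), an r of 0.68 without the 2 farthest arrays and of 0.81 within time points. Toll9 and CPIJ008547 had an r of 0.81 (permutation p = 0.0016, adjusted 0.0032) and a rho of 0.64 (p = 0.0293, adjusted 0.0586), and without the 2 farthest arrays r was 0.44, so the relation rests in part on those arrays. Within time points r was 0.87. Toll9 and the essential modulator had an r of 0.73 (permutation p = 0.00687, adjusted 0.0115), 0.36 without the 2 farthest arrays and 0.86 within time points, and a rho of 0.57 (p = 0.0595, adjusted 0.0992). The p105 subunit had an r of 0.25 with CPIJ008547 (permutation p = 0.43, adjusted 0.575) and a rho of 0.12 (p = 0.719, adjusted 0.799), with an r of 0.06 without the 2 farthest arrays. With Toll9 its r was -0.09 (permutation p = 0.773, adjusted 0.773) and its rho -0.34 (p = 0.286, adjusted 0.409), while r was -0.69 without the 2 farthest arrays. Within time points the r of p105 was -0.06 with CPIJ008547, -0.24 with Toll9 and -0.42 with the essential modulator. The values of an array share its RNA and its normalization.

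**Figure D3:**
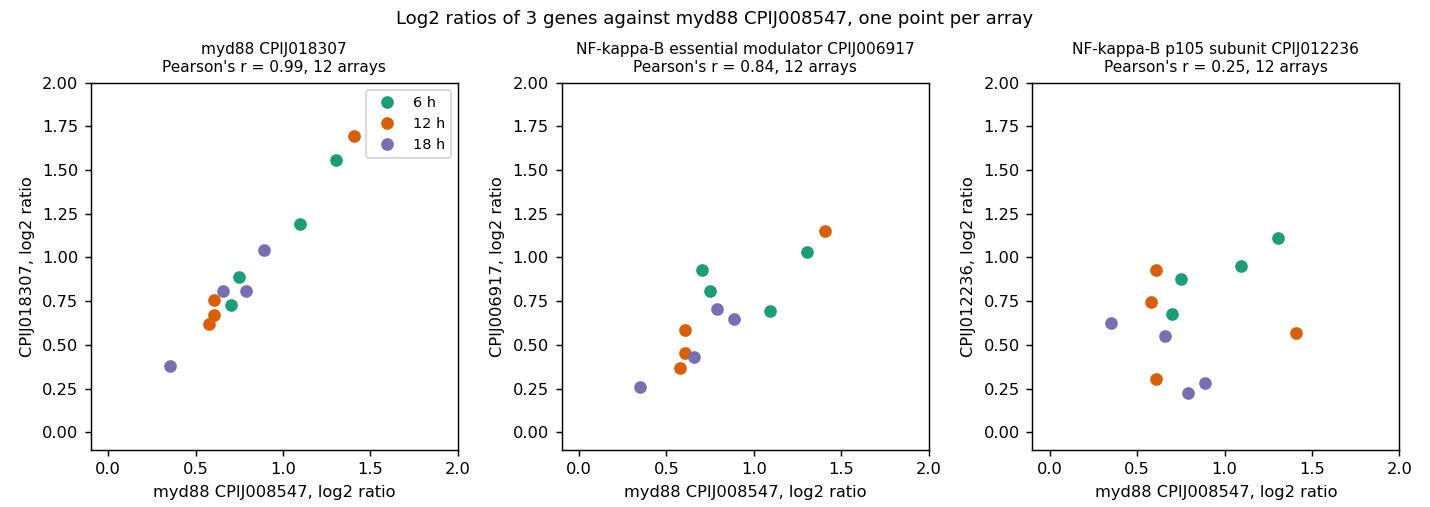
Log2 ratio of toxin over control of the second myd88 gene, the essential modulator and the p105 subunit (vertical axes) against that of myd88 CPIJ008547 (horizontal axis), one point per array coloured by time. The myd88 pair lies close to a line (r of 0.99), the essential modulator follows more loosely (0.84), and p105 shows no clear relation (0.25).

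Of all other genes on the array, those whose log2 ratios followed a gene most closely over the 12 arrays were listed by Pearson's r, as a description. For Toll9 they were CPIJ011609, a conserved hypothetical protein, and CPIJ002112, named serine protease nudel, both with r of 0.93. For CPIJ008547 and CPIJ018307 the closest gene was the same, CPIJ010164, named katanin p60 ATPase-containing subunit, with r of 0.94 and 0.95. The microtubule-severing katanin had log2 ratios of 0.63, 0.56 and 0.43 at 6, 12 and 18 h. For the essential modulator they were CPIJ000181, named schnurri, with r of 0.92, and CPIJ014867, named parkin, with r of 0.90. For p105 they were CPIJ006605 and CPIJ000048, which have no name in the tables used, both with r of 0.92.

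The other Toll, Imd and antimicrobial genes that the study's table names, 22 in all, moved in both directions. At each time point 3 of them were up-regulated. The number of down-regulated genes was 3 at 6 h, 6 at 12 h and then 4 by 18 h. At 6 h it was 1 with the background model fitted on all spots, and 5 with the scanner's log ratio or without 6 h replicate 2. Of all genes, 3.2%, 5.51% and 1.79% were down-regulated at these times, beside the shares of up-regulated genes given above. Their median log2 ratio was -0.03, -0.19 and -0.33. The study picked this list for change on these arrays, so it too is no independent evidence.

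Both intracellular genes of that list were up-regulated at every time. Their mean ratios at 6, 12 and 18 h lay above those of all 5 genes, at 18 h with 0.81 and 0.86 against at most 0.76. This difference was not tested. The inhibitor of nuclear factor kappa B kinase beta subunit (CPIJ015672), the catalytic partner of the essential modulator in mammals, had log2 ratios of 1.36 ± 0.10, 1.37 ± 0.21 and 0.81 ± 0.07 at 6, 12 and 18 h (SD, n = 4), with adjusted p of 1.37e-07, 7.24e-08 and 1.2e-05. Its arrays lay between 1.24 and 1.45 at 6 h and between 0.70 and 0.88 at 18 h. The ratio at 18 h was 0.56 below that at 6 h (difference -0.56, 95% interval -0.77 to -0.34, adjusted p = 0.00219), which is under the fold threshold. Time and slide cannot be told apart in this difference either. Embryonic polarity dorsal (CPIJ002468), in Drosophila a transcription factor at the end of the Toll pathway, had 1.19 ± 0.12, 1.28 ± 0.39 and 0.86 ± 0.07 (SD, n = 4), with adjusted p of 9.96e-06, 3.39e-06 and 0.000179.

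Neither of the other receptors, a second Toll9 gene (CPIJ006150) and LRR Toll (CPIJ004924), was called at any time. However, LRR Toll was called lower at 18 h without 12 h replicate 1 (-0.92, adjusted p = 0.0258) and in 3 of 19 alternatives. At an unadjusted p under 0.05 in the limma fit, 1, 1 and 2 of the 2 passed at 6, 12 and 18 h. The share of all genes at that threshold was not computed, so these counts do not set the receptors apart from the array. Even at an adjusted p under 0.05 without the fold threshold, 7023, 9074 and 5788 genes of the array passed. The second Toll9 gene had ratios of 0.28 ± 0.26 and 0.31 ± 0.23 at 6 and 12 h and -0.33 ± 0.23 at 18 h (SD, n = 4, adjusted p = 0.0714, 0.0354 and 0.0421), with a sign at 18 h that changed under 1 alternative (range -0.39 to 0.12). Of 9 recognition genes, 1 was up-regulated and 2 down-regulated at 6 h, whereas 0 rose and 4 fell at 12 h and 0 rose and 3 fell at 18 h. Peptidoglycan recognition protein-lc (CPIJ006561), the Imd receptor in Drosophila, had a log2 ratio of 0.86 ± 0.36 at 6 h (adjusted p = 0.00028) and of 0.53 ± 0.27 and 0.44 ± 0.13 at 12 and 18 h, under the fold threshold. Gram negative bacteria binding protein 2 (CPIJ004229) fell by 1.91 ± 0.10 at 12 h and gram-negative bacteria-binding protein 1 (CPIJ004320) fell by 1.76 ± 0.28 at 18 h (SD, n = 4, adjusted p = 1.66e-08 and 1.32e-05). The 12 h ratio of CPIJ004229, called lower in all 19 alternatives, ranged from -2.98 to -1.44 over them. Its toxin signal there was low, at 6.54 to 6.89 (normalized log2 intensity). Another recognition gene, CPIJ016771, was saturated in both channels on every array and has no fold. CPIJ004321 and CPIJ004324 were saturated in the toxin channel on 8, 7 and 8 and on 7, 6 and 6 of 8 readings at 6, 12 and 18 h, and CPIJ004324 also in the control channel on 6 of 8 at 12 h. These 3 genes are in the counts and medians of the list. Of the 2 clip-domain serine proteases, a family that cleaves the Toll ligand precursor in Drosophila, CPIJ002658 was called higher at 18 h (0.85 ± 0.32, adjusted p = 0.00597), where its ratio was 0.74 without 18 h replicate 1. Its ratios at 6 and 12 h, 0.68 ± 0.41 and 0.73 ± 0.50, were under the fold threshold, and called in 5 and 8 of 19 alternatives. The differences from 18 h were 0.17 (adjusted p = 0.716) and 0.12 (adjusted p = 0.81).

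Among 7 effectors, 0 were up-regulated and 1 down-regulated at 6 h, whereas 1 rose and 2 fell at 12 h and 0 rose and 1 fell at 18 h. Gambicin (CPIJ016084), an antimicrobial peptide, fell by 2.25 ± 1.09 at 6 h and by 1.48 ± 0.92 at 12 h (SD, n = 4, adjusted p = 0.000935 and 0.00861), and its ratio at 18 h was 0.14 ± 0.35. Its arrays at 6 h ranged from -3.17 to -0.67. Defensin-A (CPIJ001276) fell by 1.80 ± 0.40 at 18 h (adjusted p = 0.0185), and without 18 h replicate 2, 3 or 4 its adjusted p was 0.0665, 0.0643 and 0.0602. At 6 h its toxin signal ranged from 8.35 to 12.42 over the 4 arrays, and without 6 h replicate 2 it was called lower at 6 h (-1.27, adjusted p = 0.00124) and 12 h (-1.15, adjusted p = 0.000464). Lysozyme c-4 (CPIJ010731), which cuts bacterial cell walls, rose by 1.33 ± 0.75 at 12 h (adjusted p = 0.000388), while lysozyme P (CPIJ010730) fell by 0.92 ± 0.32 (adjusted p = 0.000506). The 2 cecropins and the lysozyme CPIJ005451 were not called. For cecropin A (CPIJ010699) this rests in part on 1 array. Its 6 h ratios ran from -1.37 to 3.92, the highest on replicate 2. Without that array it was called lower at 6, 12 and 18 h (-1.08, -1.31 and -0.77, adjusted p = 0.0133, 0.0012 and 0.0329). Cecropin A was also called lower at 12 h in 3 of 19 alternatives. Cecropin signals with toxin were low. Cecropin A was well above background on 6 of 8 toxin readings at 6 h, and CPIJ010701 on 6 and 5 of 8 at 12 and 18 h. The 12 h ratio of CPIJ010701 ranged from -1.27 to -0.29 over the alternatives.

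**Figure D4:**
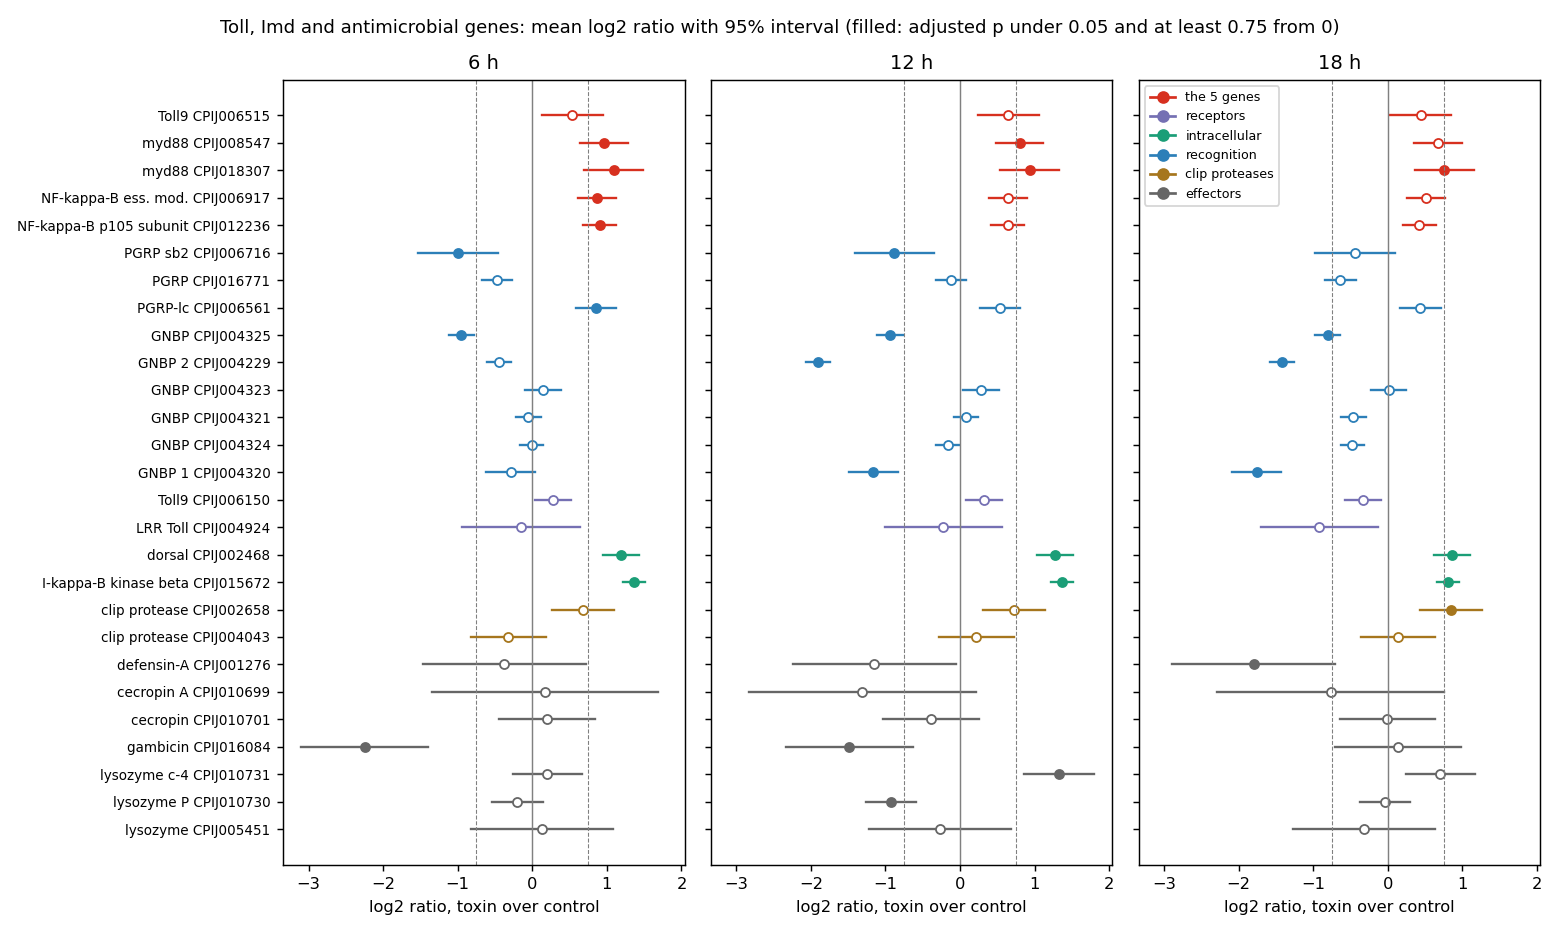
Mean log2 ratio of toxin over control (horizontal axis, with 95% interval from the limma fit) of the 5 genes in red and of 22 other genes of the Toll and Imd pathways, at 6, 12 and 18 h; filled points passed the adjusted p of 0.05 and the threshold of 0.75 (dashed lines). PGRP is peptidoglycan recognition protein, GNBP gram-negative bacteria binding protein, the values of CPIJ016771 are from saturated spots, and those of CPIJ004321 and CPIJ004324 mostly from spots saturated with toxin. The intracellular genes sit right of 0 with the 5 genes at every time, and called recognition genes and effectors lie mostly left of 0.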

How the data were processed

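The data were 2-colour Agilent arrays of midgut RNA, 4 each at 6, 12 and 18 h. Per the file headers (Feature Extraction 11.5.1.1), the deposited intensity values are median pixels of spot and local background, not normalized. The log10 values the authors deposited are the scanner software's ratio of Cy5 over Cy3. The log2 values in the authors' deposited table matched normexp (offset 16) with loess on all spots to within 4.98e-08.

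Before normexp (offset 50), 29 to 153 spots per array were dropped that the software marked for an uneven background, since with them 3 arrays had log ratios with an interquartile range of 0.022 to 0.048. Outlying spots were set missing, 1417 control spots removed, and loess, avereps, lmFit (a mean per time point, 9 residual degrees of freedom) and eBayes run in limma 3.58.1 (R 4.3.3; figures: Python 3.11.15, matplotlib 3.10.9). Channel levels come from loess and Aquantile. The steps were tested on simulated data. The number of arrays limits the precision.

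Named are the 5 genes, the study's other Toll, Imd and antimicrobial genes, and the 2 genes most correlated with each; a search by description was not run. Members and lists were chosen with earlier results of these data known.

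Alternatives were other background corrections, normalizations, deposited and scanner ratios, spot and probe choices, model settings, thresholds, and arrays left out.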

Additional observations from a re-analysis of the deposited data

Results flagged for a closer look

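Within a time point, the 4 arrays of each of the 5 genes were examined for a single array far from the other 3, as the gap to the nearest array over the whole range. In 2 of the 15 combinations of gene and time, the gap was above Dixon's 95% limit for 4 values. The share of all genes with such a gap was not computed, so this count does not set the 5 genes apart from the array. Both were 12 h replicate 3: myd88 CPIJ008547 had a log2 ratio of 1.41 there against 0.58 to 0.61 on the other arrays (gap of 0.967 of the range), and myd88 CPIJ018307 had 1.69 (0.872). Chance gives such a value in about 1 of 20 groups, and the pair is not independent, since the ratios of both genes moved together over all arrays. The essential modulator and Toll9 were also highest on this array, at 1.15 and 1.22, within the limit, and the p105 subunit was not, at 0.57.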

How the results depend on the processing

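At 6 h, 4 or 5 genes were called under all 19 alternatives and all 12 fits that left out an array, and CPIJ008547, CPIJ018307, CPIJ006917 and CPIJ012236 were called in each. At 12 h (2 genes), scale normalization and the first probe of each gene gave 1, no fold threshold gave 5, and leaving out an array gave 0 (12 h replicate 3) to 3. At 18 h (1 gene), normexp on all spots, the deposited log ratios, dim spots left out (15805 genes), the first probe and leaving out the 3 narrow arrays gave 0, scale normalization 2, no fold threshold 4, median centring 5, and leaving out an array 0 to 2. For 18 against 6 h (0 genes), the scanner's log ratio and no fold threshold gave 1, p105. No ratio at a time point changed sign. Differences between times that changed sign were small: with median centring Toll9 gave -0.049 (12 against 6 h), 0.18 (18 against 12 h) and 0.13 (18 against 6 h), and at 18 against 12 h CPIJ008547 0.27, CPIJ018307 0.14, CPIJ006917 0.27 and CPIJ012236 0.18. Toll9 gave -0.014 (12 against 6 h) with the scanner's log ratio and 0.0075 (18 against 6 h) with scale normalization, and CPIJ008547 0.025 (18 against 12 h) with scale normalization. Leaving out an array gave Toll9 -0.078 to 0.33 (12 against 6 h) and -0.21 to 0.13 (18 against 6 h), and at 18 against 12 h CPIJ008547 -0.20 to 0.075, CPIJ018307 -0.28 to 0.077 and CPIJ006917 -0.22 to 0.039. The cause was not tested.

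Median centring, which leaves the dye trend with intensity in place, turned the array's calls from 443 higher and 633 lower to 784 and 406 at 6 h and from 478 and 353 to 1551 and 171 at 18 h. The scanner's log ratio called 1638, 3290 and 1861 genes at 6, 12 and 18 h against 1076, 1855 and 831, and no fold threshold 7023, 9074 and 5788. Between times, calls were 376, 732 and 880 (12 against 6, 18 against 12 and 18 against 6 h), and 182, 459 and 555 with normexp on all spots. Of the other 22 pathway genes, 1 to 5 were called lower at 6 h, 4 to 8 at 12 h and 2 to 8 at 18 h over the alternatives and left-out arrays (3, 6 and 4 as reported). Dorsal was called in all alternatives at each time, and the kinase beta subunit in all but 1 at 18 h. With a replicate block, 4, 2 and 1 of the 5 genes were called, as without it. The deviations of arrays that share a replicate number correlated with a median r of 0.16 (range -0.11 to 0.39, over 0.1 in 8 of 12 pairs), against -0.05 for arrays of different numbers. Not every pair was over 0.1 and the labels do not say that a number marks a shared batch, so the block is given as an alternative only.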
